A study of Nothobranchius furzeri with 42 samples.

Results

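This section describes the liver of female African turquoise killifish (Nothobranchius furzeri) of the short-lived GRZ strain, in 5 fish treated with alendronate and 4 fish given placebo. Its 9 libraries were chosen by the tissue and treatment labels, out of 42 libraries from 5 tissues of the same animals, and each was read for all 25475 genes of the count table. From an age of 16 weeks, the fish lived for 3 weeks in system water that received either 10 µM alendronate or, for placebo, an equal amount of distilled water, with 10% of the water changed each day. All fish shared the female sex, the GRZ strain, a water temperature of 28 °C, a light phase of 12 h and an age of 19 weeks at sampling. Each title prefix was taken to mean 1 fish, called by its arm and its number. The number of tanks was not given in the sources used here, and treatment and tank cannot be told apart. Library serial numbers of the alendronate fish all came before those of the placebo fish, so this order and the treatment cannot be told apart either, and p-values measure only the spread between these fish.

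The liver secretes most plasma proteins, and in egg-laying female fish it also makes yolk precursors and egg envelope proteins under estrogen, so a few transcripts can take a large part of its messenger RNA. It is also a main site of sterol synthesis through the mevalonate pathway. Alendronate, a nitrogen-containing bisphosphonate that binds to bone mineral, inhibits farnesyl diphosphate synthase of that pathway, mainly in bone-resorbing osteoclasts. The comparison asks which liver genes differ in level after the drug. The table carries Ensembl gene IDs without names, and 0 of the 25475 IDs matched the RefSeq gene table of the assembly NfurGRZ-RIMD1. No ID is therefore given a name or a role here, liver markers could not be looked up, and abundant genes are called by their rank. Rank 1 is the gene with the highest mean share of liver counts, both arms weighing equally.

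Liver libraries held from 22285977 to 33890627 counts, and between 17961 and 19692 genes had at least 1 count. Placebo fish 4 was the shallowest and stood apart from the other placebo livers in its composition. Over the 15167 genes that passed the filter on low counts, Pearson's r of log2 levels across genes had a median of 0.925 over the 10 pairs of alendronate livers, 0.939 over the 6 pairs of placebo livers and 0.931 over the 20 pairs of 1 fish from each arm. Genes are not independent replicates, so these values are descriptions. Arm accounted for 13.4% of the variance of log2 levels between the 9 livers. Any split of these livers into groups takes part of the variance, so this value alone shows no effect of treatment. The first principal component accounted for 43.6%. Along that component the arms were partly apart but overlapped, and this was not tested. Alendronate fish 3 lay with placebo fish 1, 2 and 3 at the positive end, while placebo fish 4 lay with alendronate fish 1, 2 and 5 at the negative end and alendronate fish 4 was near 0.

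A small number of genes supplied a large part of liver counts in both arms. In each library the top 10 genes by abundance took 38.2%, 52.7%, 51.4%, 43.9% and 54.5% of its counts in alendronate fish 1 to 5, and 57.4%, 56.4%, 57.3% and 46.8% in placebo fish 1 to 4. The 3 highest values were all placebo, but placebo fish 4 lay below 3 of the 5 alendronate fish, so the arms overlapped. The mean was 48.1% ± 6.87 (SD, n = 5) in the alendronate arm against 54.5% ± 5.11 (SD, n = 4) in the placebo arm. This difference, -6.31 percentage points, did not pass a two-sided exact permutation test (p = 0.167, adjusted p = 0.291 over 5 measures of composition). In whole liver, fewer cells of a type and less RNA per cell cannot be told apart. An exact p in this design cannot fall below 0.00794. Without placebo fish 4 the difference was -8.85 points (exact permutation p = 0.0714), and without alendronate fish 1 it was -3.82 points (exact permutation p = 0.314).

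**Figure D1:**
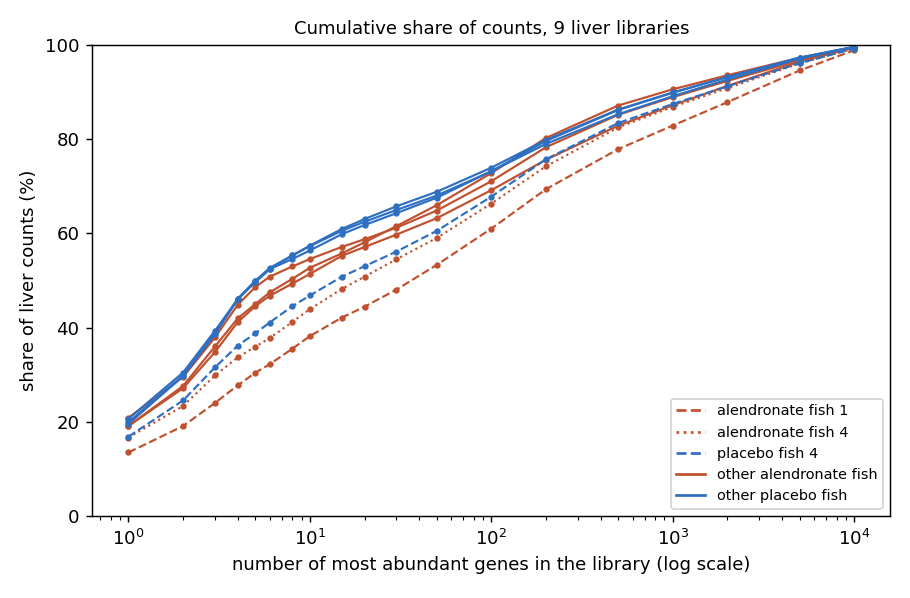
Share of liver counts (%, y axis) held by the most abundant genes of each library (number of genes on a log x axis), with 1 line per fish, alendronate in red and placebo in blue, alendronate fish 1 and placebo fish 4 dashed and alendronate fish 4 dotted. At 10 genes the lines run from 38.2% in alendronate fish 1 to 57.4% in placebo fish 1, and placebo fish 4, at 46.8%, lies among the alendronate lines.

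None of the other measures of composition passed after adjustment either. The most abundant gene alone held 17.9% ± 2.85 (SD, n = 5) of counts in the alendronate arm and 19.3% ± 1.65 (SD, n = 4) in the placebo arm (exact permutation p = 0.452, adjusted p = 0.452). The 100 most abundant genes held 68.1% ± 4.62 (SD, n = 5) and 72.0% ± 2.83 (SD, n = 4), respectively (exact permutation p = 0.175, adjusted p = 0.291). The number of genes needed to reach 50% of counts was 37, 8, 9, 19 and 6 in alendronate fish 1 to 5, and 6, 6, 6 and 14 in placebo fish 1 to 4 (exact permutation p = 0.325, adjusted p = 0.407). More genes shared the counts in alendronate fish 1 and 4 and in placebo fish 4 than in the remaining livers.

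CPM, the unit of level used here, is a count relative to the scaled total of its library. Liver-enriched genes, 482 in number, were those whose mean level in liver reached 5 CPM and was no less than 10 times that in any other tissue. They supplied 57.2%, 65.8%, 67.2%, 62.7% and 67.4% of counts in alendronate fish 1 to 5 and 71.5%, 70.4%, 70.3% and 65.1% in placebo fish 1 to 4. The other 3 placebo fish lay above every alendronate fish, while placebo fish 4 lay below 3 of them. The difference of -5.23 points had the smallest p of the 5 measures and did not pass after adjustment (exact permutation p = 0.0714, adjusted p = 0.291). Since these libraries also defined the list, a high share in liver is no check of the tissue label. Outside ranks 1 to 6, the other liver-enriched genes made up 37.0% ± 2.58 (SD, n = 5) of the remaining counts in the alendronate arm and 39.0% ± 1.87 (SD, n = 4) in the placebo arm.

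Ranks 1 to 6 together took 31.2%, 47.5%, 46.8%, 37.8% and 50.8% of counts in alendronate fish 1 to 5, and 52.4%, 52.4%, 52.6% and 40.7% in placebo fish 1 to 4. The mean of this sum was 42.8% ± 8.08 (SD, n = 5) in the alendronate arm and 49.5% ± 5.88 (SD, n = 4) in the placebo arm. The 6 genes were grouped after their values were seen, and the sum was not tested. All 6 were liver-enriched, at least 24.2 times their mean share in any other tissue. Rank 1 held from 13.5% to 20.9% of counts over the 9 livers, rank 2 from 5.59% to 10.1%, rank 3 from 4.91% to 8.89% and rank 4 from 3.72% to 7.39%. In each of these 4 genes alendronate fish 1 was the lowest library.

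Fitted log2 changes of ranks 1 to 6 lay between -0.49 and -0.27, on levels scaled by TMM, a method that adjusts library totals for composition. With the summed share of these genes as a covariate, 4 of the 6 turned above 0. That covariate contains these genes and was added after seeing the data, so the turn is no check of their direction. The change of rank 1 was -0.27 (standard error 0.28, unadjusted p = 0.350 in edgeR) and that of rank 2 was -0.49 (standard error 0.29, unadjusted p = 0.122). Without alendronate fish 1 the 6 changes lay between -0.33 and -0.11, with rank 1 at -0.11 and rank 3 at -0.20 in place of -0.38. The 6 adjusted p-values were all 0.914 in edgeR (quasi-likelihood test, Benjamini-Hochberg adjustment). Of the 20 most abundant genes, 16 had a fitted change below 0 under TMM scaling, but 11 with library totals alone. For none of the 20 were the arms separate in level, which they were for 1.71% of all genes tested.

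**Figure D2:**
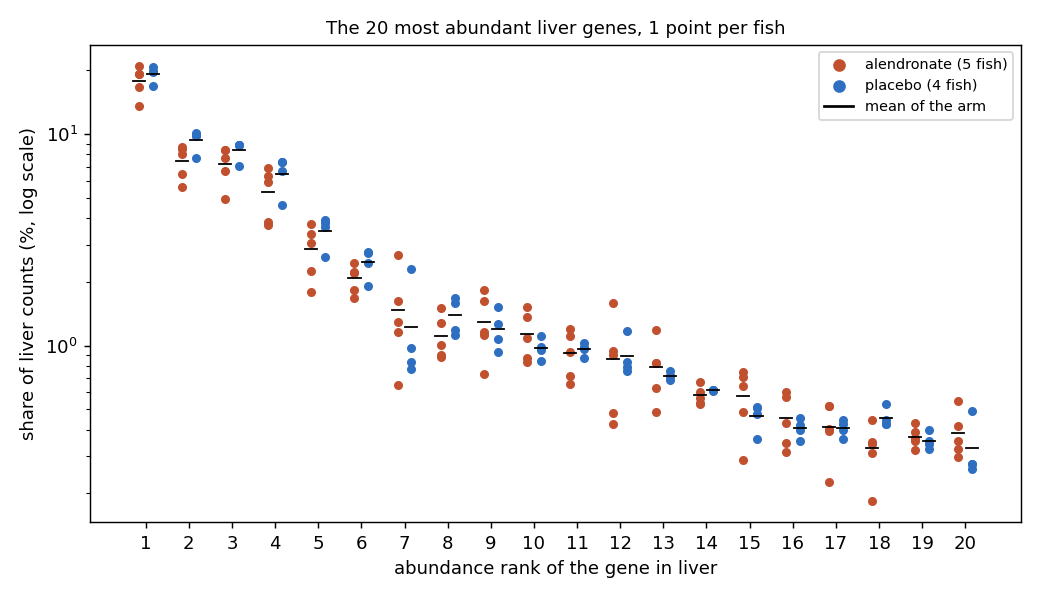
Share of liver counts (%, log y axis) of the 20 most abundant genes by rank (x axis), with 1 point per fish, alendronate in red and placebo in blue, and the mean of each arm as a black bar. The arms overlap for rank 1, between 13.5% and 20.9% with alendronate and between 16.9% and 20.7% with placebo, and for every other rank shown.

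Ratios between abundant genes within a library depend on no scaling. Rank 2 stood to rank 1 as 0.413, 0.442, 0.418, 0.388 and 0.415 in alendronate fish 1 to 5 and as 0.474, 0.498, 0.516 and 0.454 in placebo fish 1 to 4. All alendronate ratios were below all placebo ratios, with means of 0.415 ± 0.019 (SD, n = 5) and 0.486 ± 0.027 (SD, n = 4). This pair was picked out after the values were seen and was not tested. It was the 1 of 15 ratios among ranks 1 to 6 whose arms did not overlap. Of the 190 ratios among ranks 1 to 20, 7 did not overlap, where the levels of 1.71% of all genes tested did not. The 190 ratios reuse 20 genes and are not independent. Of those 7, 5 involved rank 18, so these 5 are no separate results. The treatment of reads shared by near-identical copies was not given in the sources used here, which leaves a ratio of 2 similar genes uncertain.

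Rank 18 was the one gene among the 20 with an unadjusted p under 0.05, which 4.37% of all genes tested had. It took 0.311%, 0.342%, 0.349%, 0.447% and 0.185% of counts in alendronate fish 1 to 5 and 0.527%, 0.427%, 0.444% and 0.424% in placebo fish 1 to 4. In share, alendronate fish 4 lay among the placebo fish and the other alendronate fish below all of them. On the TMM levels that were tested, alendronate fish 2 and 4, at 4213 and 3954 CPM, both lay above placebo fish 4, at 3924 CPM. The fitted log2 change of rank 18 was -0.68 (standard error 0.27, unadjusted p = 0.0261), and the adjusted p was 0.914 in edgeR. The gene was liver-enriched, at 28.2 times its highest mean share elsewhere.

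A block of 38 genes was high in some livers and low in others without following the arms. They had at least 5 CPM in both liver and spleen, less than a 10-fold difference between these 2 tissues, and levels at least 10 times those in heart, muscle and kidney. The rule was set after the abundant members were seen to vary together, so the members are not independent and counts of them describe 1 shared pattern. Their summed share of liver counts was 3.08%, 4.12%, 0.672%, 0.753% and 1.37% in alendronate fish 1 to 5, and 0.760%, 0.963%, 1.87% and 1.57% in placebo fish 1 to 4. Alendronate fish 1 and 2 were the highest of all livers and alendronate fish 3 and 4 the lowest, so the whole range, 6.13-fold, lay inside 1 arm. In 34 of the 38 genes alendronate fish 2 was the highest library.

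The same 38 genes ran from 0.201% to 7.98% of counts in the spleen libraries. Alendronate fish 2, highest in liver, was lowest in spleen, while alendronate fish 1 was high in both. Their share was at most 0.0166% in heart, 0.0788% in muscle and 0.0955% in kidney. In the liver fit 37 of the 38 had a change above 0, with a median log2 change of 0.50 against 0.04 for all genes tested. Alendronate fish 1 and 2, the highest livers, weigh on all members alike, so 37 of 38 is no repeated result. An unadjusted p under 0.05 was seen in 0 of 38, where 4.37% of all genes had one, and so few linked genes cannot show a difference from that share. Of these genes 7, among them ranks 31, 43 and 74, belonged to the 100 most abundant liver genes. Rank 31 alone varied from 0.0832% in alendronate fish 3 to 0.519% in alendronate fish 2.

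**Figure D3:**
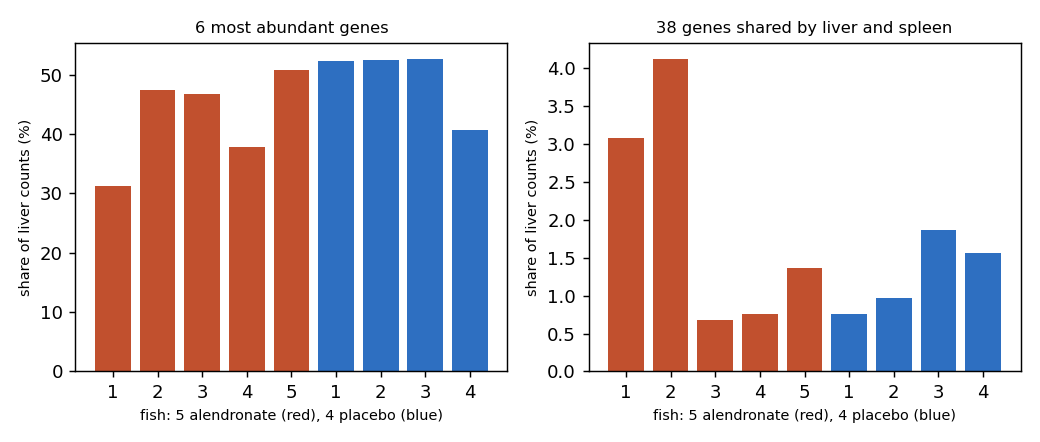
Bars, starting at 0, give the share of liver counts (%, y axes) in each fish (x axes) for the 6 most abundant genes and for the 38 genes shared by liver and spleen. The 6 genes are lowest in alendronate fish 1 at 31.2%, and the 38 genes are highest in alendronate fish 2 at 4.12% and lowest in alendronate fish 3 at 0.672%.

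No single gene passed the test of treatment in liver. Of 15167 genes tested, 0 (0.0%) had an adjusted p under 0.05 in edgeR, and the smallest was 0.914. Before adjustment, 663 genes (4.37%) had a p under 0.05, 333 (2.2%) of them higher and 330 (2.18%) lower with alendronate, where 5% of genes would do so with no effect. DESeq2 called 1 gene (0.00441% of 22688), limma-voom 0, and edgeR on all 42 libraries together 3 (0.0144% of 20892). That last fit had no term for fish and treated the tissues of 1 fish as independent, which limits its p-values. The 663 depended on placebo fish 4: without it the number was 1894 of 15409 genes tested, above 5%. Of the 1894, 1339 were higher and 555 lower, still with 0 calls. Leaving out placebo fish 1 gave 258 of 15617, and leaving out placebo fish 3 gave 338 of 15481, both below 5%.

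How genes split by direction depended on the scaling. With library totals alone the median log2 change of all genes moved from 0.04 to 0.27, and the genes at an unadjusted p under 0.05 became 754 higher and 36 lower. With totals that leave out the 10 most abundant genes the median was 0.07 and the split was 350 higher to 204 lower. With RLE scaling, the size factors of DESeq2, in edgeR, the split went the other way, 269 higher to 392 lower. The DESeq2 fit itself, which tested more genes, gave 417 higher to 427 lower.

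No band of abundance stood far above 4.37%. Of the 10 most abundant genes 0 had an unadjusted p under 0.05, and of the next 90 there were 2 (2.22%), ranks 18 and 40, both lower with alendronate. The 900 genes that follow, down to rank 1000, held 5 higher and 25 lower ones (3.33%), and the 4000 after them, down to rank 5000, held 54 higher and 139 lower ones (4.83%). Among the 10167 tested genes beyond rank 5000 it was 274 higher and 164 lower, or 4.31%. Precision differed between the bands: the fold change had a 95% interval inside 2-fold either way for 85.8% of those 4000 genes, for 48.4% beyond rank 5000 and for 40% of the 10 most abundant genes.

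**Figure D4:**
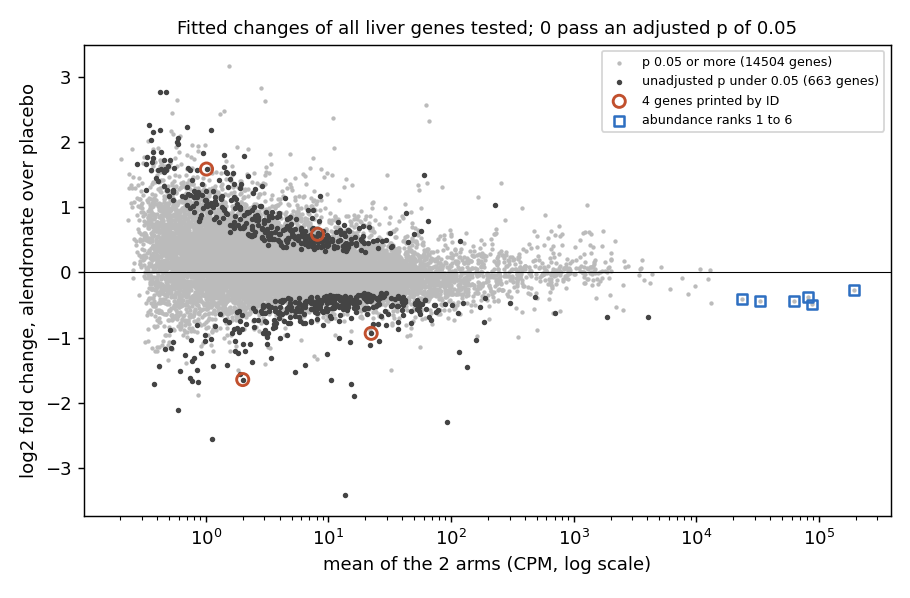
Fitted log2 fold change of alendronate over placebo (y axis) against the mean level of both arms (CPM, log x axis) for the 15167 genes tested in liver, with the 663 genes at an unadjusted p under 0.05 in dark grey. The 6 most abundant genes (blue squares) lie between -0.49 and -0.27, and the 4 genes printed by ID are circled in red.

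In 259 genes (1.71%) the levels of the arms did not overlap, 131 (0.864%) with every alendronate fish above every placebo fish and 128 (0.844%) with every one below. For 5 against 4 fish, full separation in a given direction has a probability of 0.00794 with no effect. Both shares were near that value, so these counts alone show no effect of treatment. The 131 had a median fitted fold of 1.59 and a median level of 2.65 CPM, and 36 of them reached 2-fold. The 128 had a median fold of 1.39 and a median level of 7.36 CPM, and 14 reached 2-fold. None of the 259 belonged to the 100 most abundant genes, and 99 of the 131 and 100 of the 128 also had an unadjusted p under 0.05.

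The 2 higher and the 2 lower genes with the smallest p are printed by ID. All 4 had an adjusted p of 0.914 in edgeR and did not pass, so the values below describe these fish. ENSNFUG00015001935 had 32, 28, 25, 17 and 31 counts in alendronate fish 1 to 5, and 74, 64, 95 and 77 in placebo fish 1 to 4. Its level was 0.973 ± 0.341 CPM (SD, n = 5) in the alendronate arm and 3.03 ± 0.478 CPM (SD, n = 4) in the placebo arm, and no alendronate fish reached the lowest placebo fish. Its fitted log2 change was -1.64 (standard error 0.32, unadjusted p = 0.000298), or 3.12-fold lower (95% interval 1.92 to 5.07). It was also the gene that DESeq2 called. Over the 20 alternatives its adjusted p ran from that 0.0271 to 1.00.

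Levels of the genes printed by ID were scaled within each tissue, so tissues are not on a common scale. ENSNFUG00015001935 had a higher mean level in muscle and heart than in liver, but single fish overlapped. The lowest alendronate heart stood at 2.00 CPM and the highest placebo liver at 3.47 CPM. Its mean in muscle of the caudal fin was 14.8 ± 11.8 CPM (SD, n = 5) in the alendronate arm and 20.02 ± 6.79 CPM (SD, n = 4) in the placebo arm, and in heart 6.55 ± 4.72 CPM (SD, n = 5) and 7.38 ± 5.19 CPM (SD, n = 4). In both tissues the arms overlapped. The difference between its treatment effect in liver and that in heart and muscle of the same fish was -1.15 log2 units (standard error 0.53, adjusted p = 0.381 in edgeR).

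ENSNFUG00015013879, the other lower gene, stood at 14.1, 18.4, 15.9, 12.4 and 15.8 CPM in alendronate fish 1 to 5 and at 36.5, 30.5, 31.2 and 19.0 CPM in placebo fish 1 to 4. The arms did not overlap, but placebo fish 4 was close to the alendronate fish. Its fitted log2 change was -0.94 (standard error 0.20, unadjusted p = 0.000615), or 1.91-fold lower (95% interval 1.41 to 2.59). In kidney its mean was higher with alendronate, at 64.2 ± 16.0 CPM (SD, n = 5) against 42.9 ± 5.40 CPM (SD, n = 2) with placebo. In spleen it was lower, at 24.2 ± 7.16 CPM (SD, n = 5) against 32.5 ± 9.41 CPM (SD, n = 3). Neither was tested. The difference between its effect in liver and that in heart and muscle was -0.87 log2 units (standard error 0.35, adjusted p = 0.326 in edgeR).

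ENSNFUG00015003951 was the higher gene with the smallest p, at 2.14, 1.58, 0.774, 1.87 and 1.23 CPM in alendronate fish 1 to 5 and at 0.562, 0.477, 0.488 and 0.499 CPM in placebo fish 1 to 4. All placebo fish lay close together, below the lowest alendronate fish. Its fitted log2 change was 1.58 (standard error 0.38, unadjusted p = 0.00146), or 2.99-fold higher (95% interval 1.69 to 5.32). These levels rest on 22 to 76 counts with alendronate and 12 to 15 with placebo.

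ENSNFUG00015003951 was far higher in muscle, at 19.4 ± 3.78 CPM (SD, n = 5) in the alendronate arm and 23.3 ± 6.36 CPM (SD, n = 4) in the placebo arm, and in heart, at 18.9 ± 7.43 CPM (SD, n = 5) and 20.1 ± 7.58 CPM (SD, n = 4). Genes enriched in muscle made up between 0.0345% and 0.0476% of liver counts with alendronate and between 0.0285% and 0.0411% with placebo, and genes enriched in heart between 0.0115% and 0.0199% and between 0.00837% and 0.0150%. Their part in the result was not tested. The difference between its effect in liver and that in heart and muscle was 1.71 log2 units (standard error 0.41, unadjusted p = 0.000432, adjusted p = 0.167 in edgeR).

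ENSNFUG00015009998, the other higher gene, stood at 9.57, 9.97, 8.86, 10.5 and 9.94 CPM in alendronate fish 1 to 5 and at 5.57, 6.90, 6.68 and 6.94 CPM in placebo fish 1 to 4. The lowest alendronate fish, fish 3, lay above the highest placebo fish, fish 4. Its fitted log2 change was 0.58 (standard error 0.14, unadjusted p = 0.00180), or 1.497-fold higher (95% interval 1.204 to 1.86). The gene was more abundant in spleen, at 69.8 ± 11.5 CPM (SD, n = 5) in the alendronate arm and 100.1 ± 45.2 CPM (SD, n = 3) in the placebo arm, and in kidney, at 64.2 ± 13.3 CPM (SD, n = 5) and 48.8 ± 4.01 CPM (SD, n = 2). Genes enriched in spleen made up between 0.00463% and 0.0134% of liver counts with alendronate and between 0.00290% and 0.00866% with placebo, and genes enriched in kidney between 0.0130% and 0.0210% and between 0.00935% and 0.0152%. Their part in the result was not tested.

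**Figure D5:**
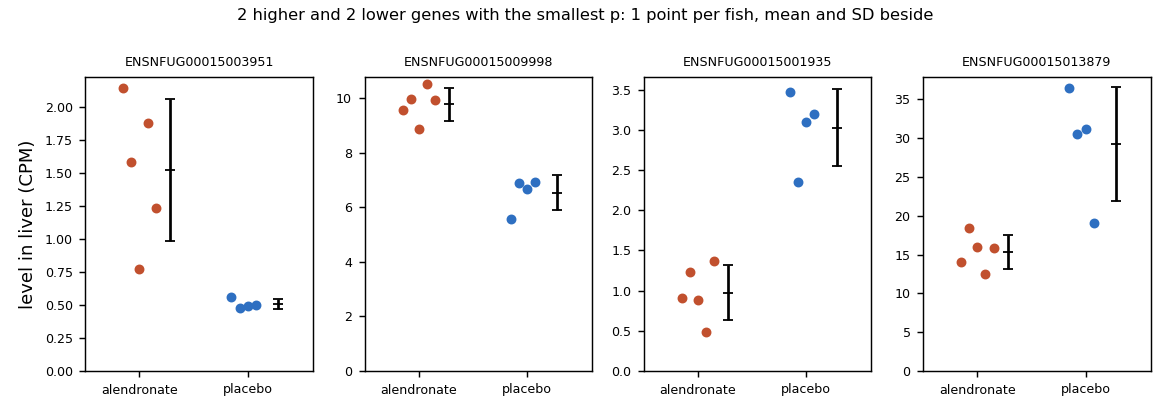
Level in liver (CPM, y axes starting at 0) of the 4 genes printed by ID, with 1 point per fish, alendronate in red and placebo in blue, and the mean and SD of each arm beside the points. The arms do not overlap in any of the 4, and those of ENSNFUG00015013879 lie close, with 18.4 CPM in alendronate fish 2 and 19.0 CPM in placebo fish 4.

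Heart and muscle, the other tissues with a library of all 9 fish, allowed each fish to be its own reference. The share of the 10 most abundant genes in liver exceeded the mean of heart and muscle by between 18.5 points, in fish 1, and 34.7 points, in fish 5, in the alendronate arm (median 27.8), and by 34.7, 35.2, 35.2 and 28.8 points in placebo fish 1 to 4. The arms overlapped, since alendronate fish 2 and 5 lay above placebo fish 4. The difference of -6.65 points between arms did not pass the exact permutation test (p = 0.0952). In heart itself the 10 most abundant genes took 14.96% ± 2.92 (SD, n = 5) in the alendronate arm and 13.7% ± 1.37 (SD, n = 4) in the placebo arm, and in muscle 27.7% ± 0.682 (SD, n = 5) and 28.3% ± 2.94 (SD, n = 4).

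The effect on single genes was not shown to differ between liver and the other 2 tissues. With fish as a term, 0 of 18236 genes (0.0%) had a treatment effect in liver that differed from the common effect in heart and muscle at an adjusted p under 0.05 in edgeR, and 0.148 was the lowest. Before adjustment 2281 (12.5%) had a p under 0.05, where 5% would do so with no difference and equal spread in all tissues. Against heart alone the number was 1671 of 17397 and against muscle alone 1382 of 17221, with 0 passing after adjustment in either. Genes are not independent, and this excess over 5% was not tested. Each of these fits took 1 spread per gene for all its tissues. Where a gene varies more between fish in liver, its p is then too small, so 5% may be no fitting reference. Without placebo fish 4, 31 of 18375 genes passed, 28 of them with the higher effect in liver, and without any other single fish 0 passed. With alendronate fish 1 left out as well, 7 of 18177 passed.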

How the data were processed

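RNA was sequenced as read pairs of 150 bases, per the labels' protocols. Tools listed in the submitters' processing notes, whose roles are not described, were STAR 2.7.10b, Trim Galore 0.6.10, SAMtools 1.13, MultiQC 1.28, FastQC 0.12.1, bcl2fastq and CASAVA. Counting program, strand setting, build and annotation were not given in the sources used here. Whether reads of a gene and of one that overlaps it on the other strand were told apart is therefore not known. The authors deposited 1 table of raw counts per gene, not normalized. All columns were mapped to samples by library name.

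For the 9 liver libraries alone, edgeR 4.0.16 was run in R 4.3.3 (filterByExpr, TMM, robust quasi-likelihood F test, treatment as the only term), two-sided, with Benjamini-Hochberg adjustment over all genes tested. Alternatives used DESeq2 1.42.0 and limma 3.58.1. Levels are CPM after TMM, and shares are percentages of all counts of a library. Shares were compared by exact permutation of the fish. The edgeR fit of liver was also run on simulated counts, whose spread between fish was set below that of these livers. That run therefore does not show how many changes the fit would miss here. Wilson 95% intervals of single-gene shares were at most 0.0163 percentage points to either side and cover counting error only, since the reads carry no molecular identifiers. The genes printed by ID were the 2 higher and 2 lower with the smallest p, and abundant genes were the top 20 by rank. Members, lists and tests were chosen with earlier results of these data known. Marker and pathway lists could not be matched to IDs and were not used.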

Additional observations from a re-analysis of the deposited data

Results flagged for a closer look

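Placebo fish 4 was set apart from the other 3 placebo livers by a gap test (Dixon, 95% level) in 8 of 62 groups of values, and no other fish was. Chance gives about 1 in 20 groups, or 3.1 of 62, over both arms. Placebo fish 4 could be flagged only in the placebo groups, where chance gives fewer. The values of 1 fish are not independent. Its 10 most abundant genes took 46.8% of counts (next placebo fish 56.4%), its 100 most abundant genes 67.8% (next 73.1%), and 14 genes reached 50% of its counts, against 6 in each of the others. The share of its 10 most abundant genes exceeded that in its heart and muscle by 28.8 percentage points (next 34.7). Rank 2 held 7.67% of its counts (next 9.80%) and rank 3 held 7.02% (next 8.88%), both below the other placebo livers. Rank 7 held 2.29% (next 0.976%) and rank 20 held 0.492% (next 0.276%), both above them.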

How the results depend on the processing

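The 0 calls in liver became 1 with DESeq2 and 3 with all 42 libraries in one fit, where 1 gene was higher and 2 lower, and stayed 0 in the other alternatives, leaving out each library included. The 3 genes were not among those printed by ID. Among them, 1 had 0 to 1 counts in the alendronate livers and 3 to 20 in the placebo livers, and did not pass the filter of the liver fit. The 663 genes at an unadjusted p under 0.05 became 1357 of 15167 with sample weights in limma-voom and 1700 of 20892 with all 42 libraries. When leaving out each library the number ran from 258 (of 15617) to 1894 (of 15409). Without alendronate fish 1 and placebo fish 4, a choice made after seeing the data, it became 1583 of 15087. With the replicate block the number was 440 of 17105 and 0 genes were called. Fish with equal numbers in the 2 arms are different animals, and their deviations correlated at -0.32, 0.03, 0.28 and -0.28 across genes. These 4 values had no common sign, and so few pairs cannot show whether equal numbers shared a handling step. The liver effect differed from that in heart and muscle for 1 of 18236 genes with no fish term. It did so for 0 to 31 (of 18375) when leaving out each fish, and for 7 of 18177 without alendronate fish 1 and placebo fish 4. The summed share of ranks 1 to 6 as a covariate, also added later, turned the fitted log2 changes of ranks 1, 3, 4 and 5 to 0.0756, 0.0169, 0.0504 and 0.0265, and this covariate contains these genes. All 80 alternatives of the composition measures kept the direction. Their exact p says little of stability, since with the replicate block it cannot fall below 0.125. For the genes printed by ID, 79 of 80 alternatives kept direction and side of the threshold, the exception being the DESeq2 call. These genes were picked for the smallest p and began at an adjusted p of 0.914, so that count is no independent check of them. With 12 to 15 placebo counts for ENSNFUG00015003951, depth limits its estimate.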

Other observations

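Some abundant liver genes varied widely between fish. Over all 9 livers, both arms together, the highest library exceeded the lowest by a median of 1.89-fold in share among the 100 most abundant genes. It did so by over 4-fold in 13 genes, which include all 7 of these 100 that belong to the block shared by liver and spleen. The arms overlapped in all 100. Rank 71, a liver-enriched gene, ranged 105-fold, from 0.00340% of counts in placebo fish 1 and 0.0109% in alendronate fish 3 to 0.356% in alendronate fish 1 and 0.268% in placebo fish 4. Rank 29, also liver-enriched, ranged 35.9-fold, with 0.804% in alendronate fish 1 and 0.611% in placebo fish 4 but 0.0224% to 0.136% in the other 7 livers. Rank 7 was likewise highest in these 2 fish, at 2.68% and 2.29%, against 0.649% to 1.62% in the others.

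Of the 500 genes with the largest weights at the positive end of the first principal component of the livers, 55.2% had their highest level among the tissues in liver, as did 52% of the 500 at its negative end and 28.8% of all genes tested. These genes were of low abundance in liver, with a median of 3.29 CPM at the positive end and 0.768 CPM at the negative end, against 5.05 CPM for all genes tested. These values describe the component and were not tested.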
